A study of Mus musculus with 18 samples.

Results

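The smooth muscle contractile apparatus was described through 30 genes, taken by gene symbol from a table of 27131 rows, and all 30 symbols matched a row. Their products build and control the contractile machine of smooth muscle: 10 belong to the thin filament, 2 to the thick filament and its kinase, and 10 to dense bodies, intermediate filaments and adhesion sites. A further 2 act in transcription and 6 in calcium, potassium and cGMP signalling.

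Polyadenylated RNA was sequenced from the colon of untreated C57BL/6 mice, in 9 libraries per group. The WT group carried Hif2a +/+ alleles. The HIF2 group carried an allele written as Hif2a LFL on the samples and as LSL in the design text, and its mice are described as overexpressing HIF2 (HIF-2α, a transcription factor that responds to low oxygen and is the product of Epas1) in the colon. By its title, the series concerns HIF-2α of the epithelium and colon tumours. No source used here gives the promoter or Cre that limits the allele to a cell type, the sex and age of the mice, or which tissue was fresh and which frozen. Whether each library is from a mouse of its own is likewise not stated, and p-values then measure only the spread between libraries, which may be technical.

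Smooth muscle contracts when calcium entering the cell leads to activation of myosin light chain kinase, which phosphorylates the light chain of myosin so that the thick filament can pull on actin. Actin filaments are anchored in dense bodies in the cytoplasm and in dense plaques at the membrane, and desmin filaments link these anchors. In the colon such cells form the muscularis mucosae and the circular and longitudinal layers of the muscularis externa, and similar genes are used in vessel walls, pericytes and myofibroblasts. Many of the genes are switched on by serum response factor, which binds a DNA element named the CArG box together with myocardin or related coactivators.

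Levels below are FPKM (fragments per kilobase of transcript scaled to the mapped fragments of the library), and differences are HIF2 minus WT on the log2(FPKM + 1) scale, which understates the change of low genes. FPKM summed to between 686539 and 937505 per library. Epas1 was at a lowest, median and highest of 13.8, 18.5 and 23.0 FPKM in WT and 16.6, 20.4 and 35.9 FPKM in HIF2. The difference was 0.24 (SE 0.14, limma adjusted p = 0.246), so the Epas1 row did not separate the groups. Whether RNA from the altered allele is counted in that row is not stated. The row therefore cannot show whether HIF2 was overexpressed. HIF2 replicates 6, 7 and 8 stood apart from all other libraries on the second principal component of 13810 genes that held neither the members nor the other listed genes. They lay at -49.2, -57.0 and -50.2 there, and the other 15 libraries lay between -9.93 and 31.5, with WT replicate 3 at 31.5. The first component held 20.4% of the variance and the second 11.1%. On the first, WT libraries lay between -40.0 and -7.28 and HIF2 libraries between 1.78 and 84.3, so the groups did not overlap there. The Y-linked gene Ddx3y was under 1 FPKM in 8 libraries, WT replicates 5 to 8 and HIF2 replicates 3, 6, 7 and 8, and the labels give no sex. Epithelial RNA was abundant throughout, with Epcam between 705 and 1142 FPKM in WT and between 631 and 979 FPKM in HIF2.

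Contractile genes were higher in HIF2 as a group of genes but not in every HIF2 library. Among the 28 members that could be tested, 24 were higher in HIF2, 1 was lower, and 3 did not pass (limma, adjusted p under 0.05 over 13976 genes). Over all tested genes, 11.0% were higher and 11.1% were lower. The member that was lower was Ldb3, and those that did not pass were Srf, Smtn and Dmpk. The threshold for testing was a mean of at least 1 FPKM over the 18 libraries. Kcnmb1 and Ryr2 fell below it, and Lmod1, Myocd, Cacna1c and Prkg1 were tested only through their level in HIF2, with WT means under 1 FPKM. With no threshold all 30 members could be fitted, and 26 were higher and 1 lower, against 10.6% and 6.83% of all 22774 genes fitted. The median log2 difference over the 30 members was then 1.76, and over all genes it was 0.015. In bulk tissue, fewer cells of a type and less RNA per cell cannot be told apart, and the same holds for more.

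The members were spread over the libraries in the same order again and again. WT replicate 3 was the highest WT library for 28 of 30 members, an order found for 18.1% of all tested genes. HIF2 replicates 6, 7 and 8 were the 3 lowest HIF2 libraries for 28 of 30 members, and for 9.75% of all tested genes. The exceptions to both orders were Ldb3 and Srf. The lowest of HIF2 replicates 0 to 5 lay above the highest WT library for 20 of 30 members, and for 6.15% of all tested genes. For 0 of 30 members did every HIF2 library lie above every WT library, an order that 0.758% of all tested genes showed. These orders were described after the values were seen.

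**Figure D1:**
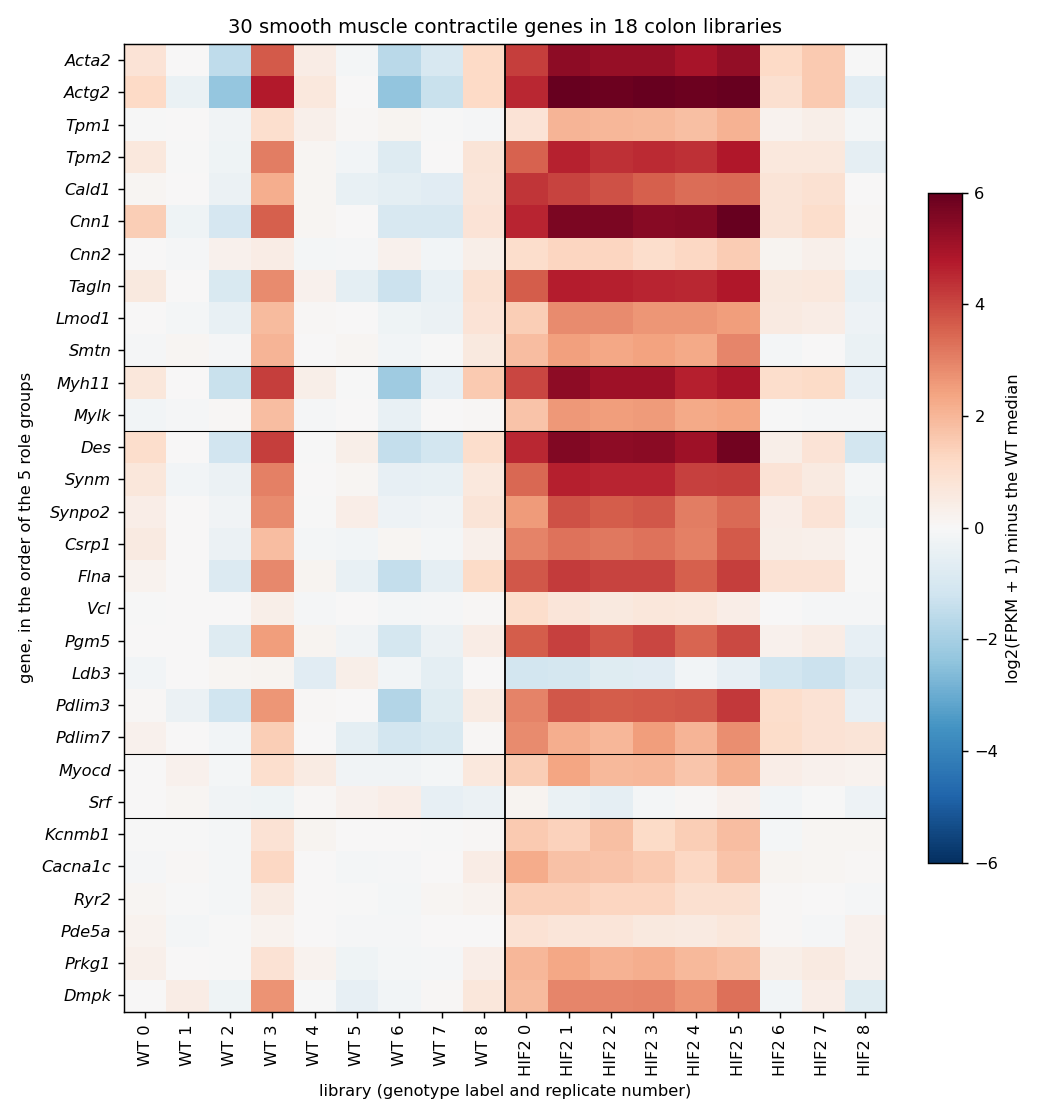
Heat map of the 30 members (rows, grouped by role) in the 18 libraries (columns), coloured by log2(FPKM + 1) minus the median of the WT libraries, with the colour scale ending at 6 in each direction. HIF2 replicates 0 to 5 and WT replicate 3 are above the WT median for most members, and all 3 of HIF2 replicates 6 to 8 lie within the WT range for 26 of the 30 members.

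The 3 largest differences were those of the thin filament genes Actg2, Cnn1 and Acta2. Acta2 (chromosome 19, 34241090 to 34255590), the actin isoform of vascular and visceral smooth muscle, was in WT replicates 0 to 8 at 26.5, 14.8, 4.56, 199.6, 20.7, 13.3, 4.17, 7.08 and 35.7 FPKM. In HIF2 replicates 0 to 8 it was at 274.9, 641, 595, 588, 493, 616, 34.8, 46.0 and 14.8 FPKM. HIF2 replicates 0 to 5 were above all WT libraries, and HIF2 replicates 6 to 8 were inside the WT range. Acta2 was higher in HIF2 by 3.45 (SE 0.83, limma adjusted p = 0.00582).

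Actg2 (chromosome 6, 83512905 to 83536265), the enteric actin isoform of visceral smooth muscle, had the largest difference of the members. It was at 23.1, 7.07, 1.15, 281, 15.3, 9.6, 1.08, 3.17 and 23.3 FPKM in WT replicates 0 to 8. It was at 246, 778, 623, 690.1, 633, 829.8, 19.9, 30.5 and 5.84 FPKM in HIF2 replicates 0 to 8. The groups overlapped at both ends, since HIF2 replicate 0 was below WT replicate 3 and HIF2 replicates 6 to 8 were inside the WT range. The difference was 3.93 (SE 1.07, limma adjusted p = 0.0126). The RNA of the enteric isoform relative to Acta2 followed the same libraries: the ratio of Actg2 to Acta2 was 0.253 to 1.41 in WT, with WT replicate 3 at 1.41. It was 0.897 to 1.35 in HIF2 replicates 0 to 5 and 0.395 to 0.663 in HIF2 replicates 6 to 8. Acta2 and Actg2 share 84.4% of their aligned coding bases, with a longest identical run of 29 bases, so fragments from shared stretches could be split between them.

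The calponins bind actin and restrain myosin. Cnn1 (chromosome 9, 22099216 to 22109630), the calponin of differentiated smooth muscle, was at 15.4, 3.86, 1.87, 69.9, 5.35, 4.82, 2.01, 1.98 and 9.19 FPKM in WT replicates 0 to 8. In HIF2 replicates 0 to 8 it was at 139, 287, 293, 253, 262, 371, 9.03, 11.0 and 5.12 FPKM. HIF2 replicates 0 to 5 were thus at least 139 FPKM and every WT library at most 69.9 FPKM, and the difference was 3.54 (SE 0.89, limma adjusted p = 0.00772). Cnn2, the form found also outside muscle, was at a lowest, median and highest of 5.96, 6.86 and 9.77 FPKM in WT and 6.24, 15.5 and 21.8 FPKM in HIF2. It was higher by 0.78 (SE 0.20, limma adjusted p = 0.00877), with 6 HIF2 libraries above all of WT, and an exact rank test did not call it (adjusted p = 0.0632). The ratio of Cnn1 to Cnn2 was 0.221 to 7.15 in WT, again highest in WT replicate 3, 9.00 to 17.1 in HIF2 replicates 0 to 5 and 0.820 to 1.25 in HIF2 replicates 6 to 8.

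Tagln (chromosome 9, 45929619 to 45936058) encodes transgelin, a calponin-related protein that crosslinks actin. It was at 34.9, 22.6, 11.3, 169, 27.4, 14.8, 8.65, 16.4 and 43.2 FPKM in WT replicates 0 to 8. It was at 289.7, 617, 596, 558, 546, 666, 34.4, 35.9 and 16.3 FPKM in HIF2 replicates 0 to 8. No library among HIF2 replicates 0 to 5 overlapped WT, and the difference was 2.93 (SE 0.77, limma adjusted p = 0.0102). Of the exon bases of Tagln, 67.9% overlap genes annotated on the other strand, Gm48529 and Pcsk7, and the library kit does not mark strand, so reads of these genes cannot be told apart there.

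**Figure D2:**
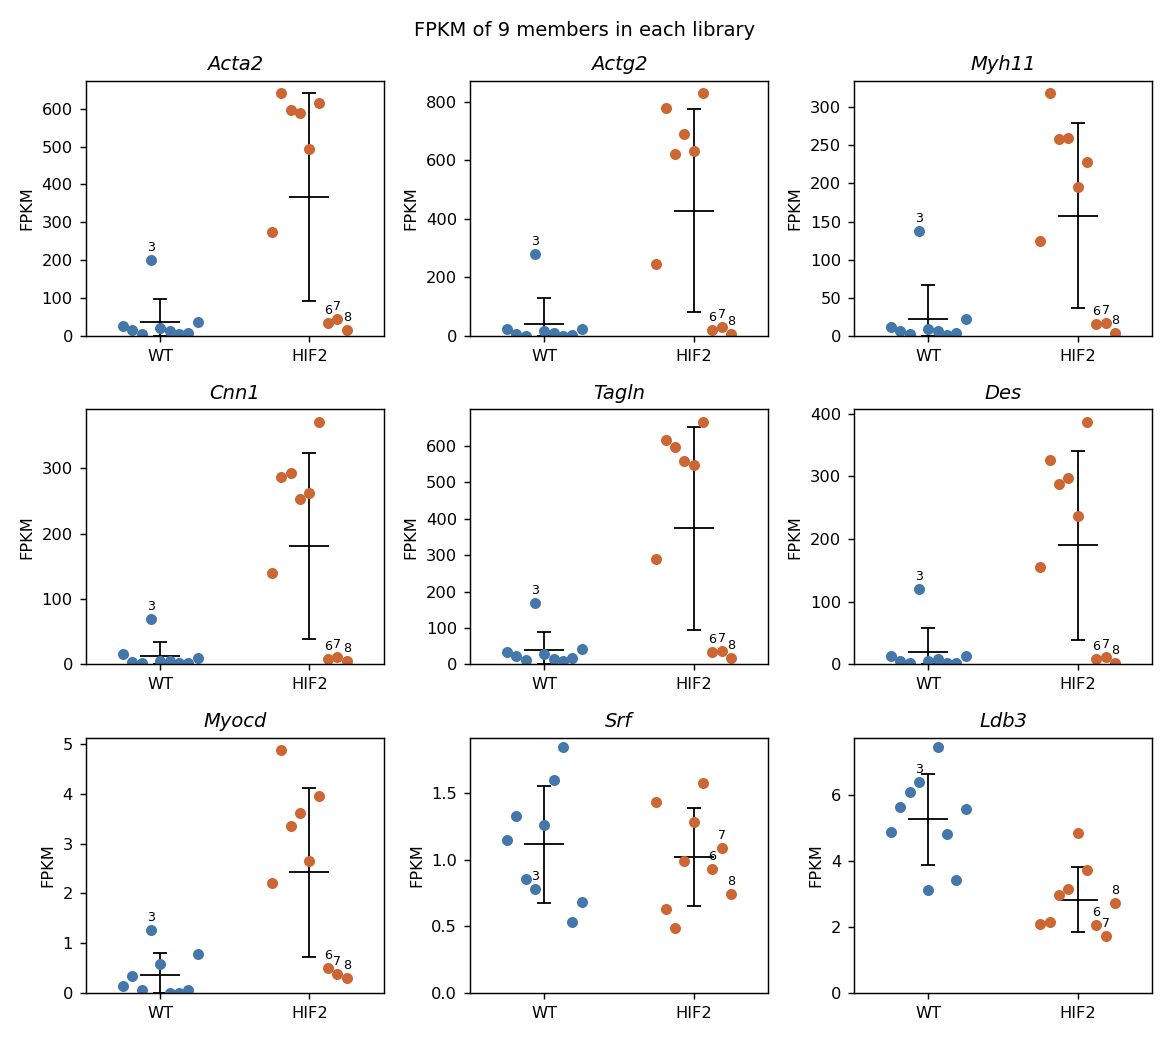
FPKM (linear axes, starting at 0) of 9 members in each library, with 1 point per library, the horizontal mark at the group mean and the bar at 1 SD (n = 9 each, its lower end drawn no further than 0), and with WT replicate 3 and HIF2 replicates 6 to 8 numbered. In the 7 muscle genes other than Srf and Ldb3, HIF2 replicates 6 to 8 sit with WT. The other HIF2 libraries sit above WT, except that HIF2 replicate 0 is below WT replicate 3 for Actg2 and Myh11. Srf overlaps throughout and Ldb3 is lower in HIF2.

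Tropomyosins lie along actin and gate its contact with myosin. Tpm1 had the highest median of the 30 members in both groups, with a lowest, median and highest of 162, 186 and 375 FPKM in WT and 173, 648 and 790.4 FPKM in HIF2, and was higher by 1.11 (SE 0.30, limma adjusted p = 0.0124). Tpm2 was at 3, 5.89 and 56.2 FPKM in WT and 3.68, 142 and 193 FPKM in HIF2, and was higher by 2.62 (SE 0.74, limma adjusted p = 0.0153). The ratio of Tpm2 to Tpm1 was 0.0145 to 0.150 in WT, 0.192 to 0.244 in HIF2 replicates 0 to 5 and 0.0213 to 0.0447 in HIF2 replicates 6 to 8. An exact rank test called neither gene (adjusted p = 0.0515 for each). Both genes were present in every library, and Tpm1 was well expressed in the libraries in which the actins were low.

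The remaining thin filament members were Cald1, Lmod1 and Smtn. Cald1, encoding caldesmon, an actin-binding inhibitor of myosin, ran from 1.46 to 16.6 FPKM in WT with a median of 2.95 FPKM, and from 2.95 to 75.1 FPKM in HIF2 with a median of 40.7 FPKM. It was higher by 2.57 (SE 0.57, limma adjusted p = 0.00372). Lmod1, encoding a leiomodin that nucleates actin filaments, had medians of 0.381 FPKM in WT and 6.93 FPKM in HIF2 and was higher by 1.56 (SE 0.45, limma adjusted p = 0.0165), and an exact rank test did not call it (adjusted p = 0.0515). Smtn, encoding smoothelin, a protein of contractile smooth muscle, was at a lowest, median and highest of 2.1, 2.49 and 13.5 FPKM in WT and 1.69, 15.8 and 25.5 FPKM in HIF2. Its difference of 1.25 (SE 0.46, limma adjusted p = 0.0575) did not pass. Without WT replicate 3 it passed (limma adjusted p = 0.0205), and it also passed when any 1 of HIF2 replicates 6, 7 and 8 was left out. Leaving out these libraries widens the difference by construction. With any 1 of the other 14 libraries left out Smtn did not pass (limma adjusted p up to 0.106).

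The thick filament followed the actins. Myh11 (chromosome 16, 14194535 to 14291372), the myosin heavy chain of smooth muscle, was at 11.3, 6.75, 2.07, 138, 8.76, 6.67, 0.795, 4.51 and 22.1 FPKM in WT replicates 0 to 8. It was at 124, 318, 258, 260.0, 195, 229, 15.2, 16.4 and 4.51 FPKM in HIF2 replicates 0 to 8. HIF2 replicate 0 lay below WT replicate 3 and above every other WT library, and the difference was 3.11 (SE 0.88, limma adjusted p = 0.0157). The ratio of Myh11 to Acta2 stayed within 0.191 to 0.692 in WT, 0.371 to 0.497 in HIF2 replicates 0 to 5 and 0.305 to 0.438 in HIF2 replicates 6 to 8.

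Mylk, the kinase that phosphorylates the myosin light chain, was at a lowest, median and highest of 10.3, 14.6 and 54.6 FPKM in WT and 13.8, 74.3 and 94.8 FPKM in HIF2. It was higher by 1.39 (SE 0.43, limma adjusted p = 0.0246). The call was lost without HIF2 replicate 1 (limma adjusted p = 0.0511) or HIF2 replicate 3 (limma adjusted p = 0.0505), and in an exact rank test (adjusted p = 0.153). Relative to Myh11, Mylk ran from 0.395, in WT replicate 3, to 12.9 in WT, from 0.298 to 0.397 in HIF2 replicates 0 to 5 and from 0.850 to 3.06 in HIF2 replicates 6 to 8. Mylk RNA thus remained in libraries in which Myh11 was scarce.

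Intermediate filament and dense body genes showed the same split. Des (chromosome 1, 75360329 to 75368579), encoding desmin, was at 13.2, 5.93, 2.11, 121, 5.79, 7.92, 1.54, 2.27 and 13.3 FPKM in WT replicates 0 to 8. In HIF2 replicates 0 to 8 it was at 156, 326, 288, 298, 237, 388, 7.91, 11.4 and 2.22 FPKM. None of HIF2 replicates 0 to 5 overlapped WT, and the difference was 3.22 (SE 0.99, limma adjusted p = 0.024), a call that an exact rank test did not make (adjusted p = 0.0765). Synm, encoding the desmin partner synemin, went from a median of 0.74 FPKM in WT to 28.9 FPKM in HIF2 and was higher by 2.64 (SE 0.70, limma adjusted p = 0.0104). Synpo2, encoding the actin-bundling protein synaptopodin 2, had medians of 0.852 and 14.8 FPKM and was higher by 1.95 (SE 0.58, limma adjusted p = 0.0207), also not called by the exact rank test (adjusted p = 0.0765).

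Proteins that crosslink actin or tie it to the membrane were also higher in RNA. Csrp1, encoding a LIM protein of the actin cytoskeleton, was at a lowest, median and highest of 19.8, 25.6 and 95.2 FPKM in WT and 25.3, 218 and 338 FPKM in HIF2, a difference of 1.99 (SE 0.51, limma adjusted p = 0.00912). Flna, encoding the actin crosslinker filamin A, was at 4.26, 13.3 and 103 FPKM in WT and 12.9, 189.9 and 264 FPKM in HIF2, a difference of 2.70 (SE 0.66, limma adjusted p = 0.00675). Pgm5, encoding a phosphoglucomutase relative found at adhesion sites of muscle, had medians of 1.81 FPKM in WT and 33.4 FPKM in HIF2 and was higher by 2.50 (SE 0.67, limma adjusted p = 0.011). For each of these genes 6 HIF2 libraries lay above the highest WT library.

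Vcl, encoding vinculin, which couples integrins to actin in many cell types, moved least among the members that were higher. It was at a lowest, median and highest of 25.4, 27.5 and 35.6 FPKM in WT and 25.8, 41.5 and 58.5 FPKM in HIF2. HIF2 replicates 0 to 5 were at 36.3 FPKM or more, above all of WT, and HIF2 replicates 6 to 8 were at 25.8 to 28.4 FPKM. The difference was 0.42 (SE 0.14, limma adjusted p = 0.0317). The call was lost when any 1 of WT replicates 0, 4, 6 and 7 or HIF2 replicates 1, 2, 3 and 4 was left out, with limma adjusted p-values of 0.0505 to 0.0627, with values rescaled to TPM (limma adjusted p = 0.130) and in an exact rank test (adjusted p = 0.110). Of its exon bases, 25.5% overlap Ap3m1 on the other strand.

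The PDZ and LIM proteins, which sit at Z-discs of striated muscle or at actin anchors, did not move together. Pdlim3 had medians of 3.88 FPKM in WT and 58.7 FPKM in HIF2 and was higher by 2.69 (SE 0.65, limma adjusted p = 0.00582). Pdlim7 had the smallest p-value of the members: it was at a lowest, median and highest of 0.619, 2.44 and 8.56 FPKM in WT and 4.82, 13.2 and 23.7 FPKM in HIF2, a difference of 2.00 (SE 0.34, limma adjusted p = 0.00055). It was also the member for which HIF2 replicates 6 to 8, at 4.82 to 6.27 FPKM, all lay above the highest WT library other than replicate 3, at 3.18 FPKM. This held for 1 of the 30 members.

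Ldb3 (chromosome 14, 34526603 to 34588682), encoding a PDZ and LIM protein best known from the Z-disc of heart and skeletal muscle, was lower in HIF2. It was at 4.88, 5.64, 6.08, 6.37, 3.12, 7.43, 4.83, 3.42 and 5.57 FPKM in WT replicates 0 to 8. It was at 2.1, 2.15, 2.97, 3.13, 4.83, 3.72, 2.05, 1.72 and 2.72 FPKM in HIF2 replicates 0 to 8. The groups overlapped in part, HIF2 replicates 0 to 2 and 6 to 8 were below the lowest WT library, and WT replicate 3 was not the highest. The difference was -0.72 (SE 0.16, limma adjusted p = 0.00334). Ldb3 therefore differed in direction and in library order from the other dense body and adhesion members.

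**Figure D3:**
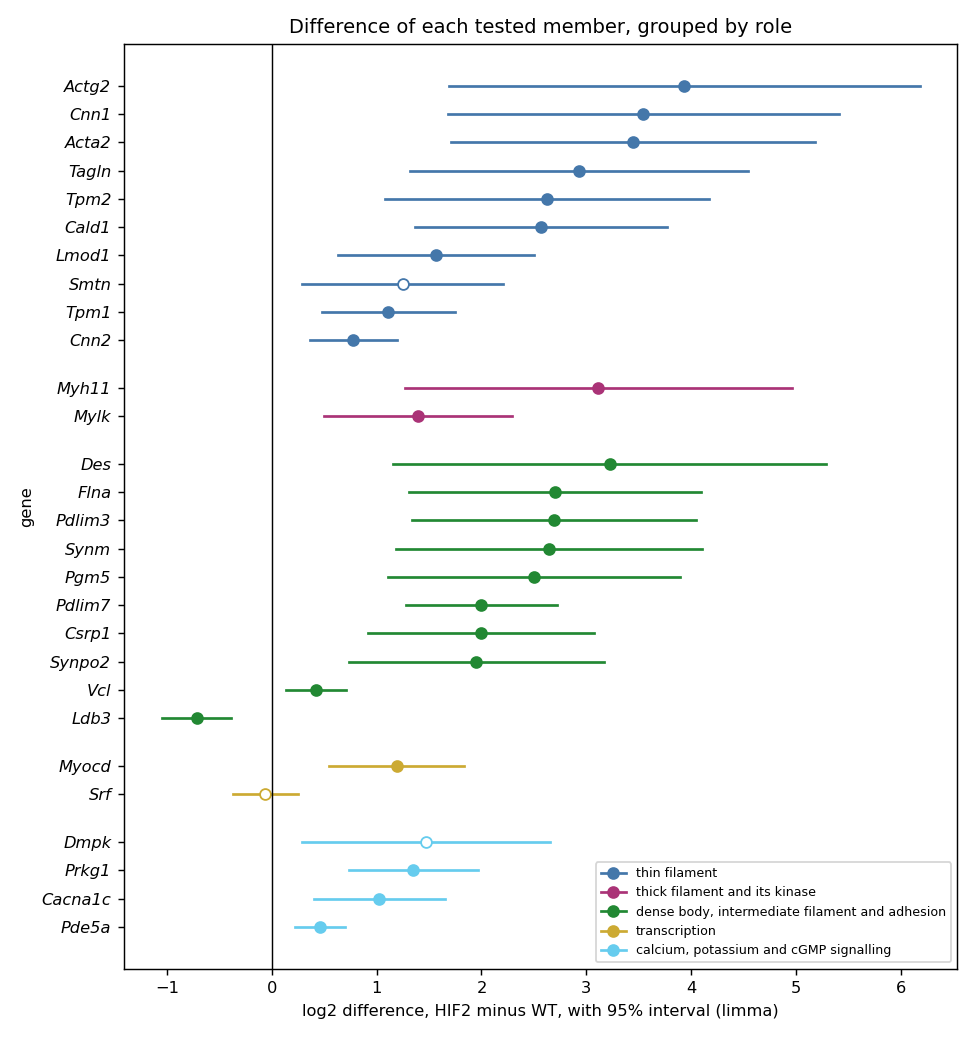
Log2 difference (HIF2 minus WT, points) with its 95% interval (lines, limma) for the 28 tested members (vertical axis), coloured by role, with filled points for an adjusted p under 0.05 and open points for the others. Actg2 at 3.93 is farthest to the right, Ldb3 at -0.72 is the member to the left with a filled point, and Srf lies at -0.06.

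Of the transcription genes, the coactivator differed and the DNA-binding factor gave no detectable difference. Myocd (chromosome 11, 65176561 to 65269989), encoding myocardin, was at 0.14, 0.35, 0.0538, 1.27, 0.588, 0, 0, 0.0616 and 0.776 FPKM in WT replicates 0 to 8. It was at 2.21, 4.88, 3.35, 3.61, 2.65, 3.97, 0.504, 0.383 and 0.302 FPKM in HIF2 replicates 0 to 8. HIF2 replicates 0 to 5 did not overlap WT, and HIF2 replicates 6 to 8 were within it. The difference was 1.19 (SE 0.31, limma adjusted p = 0.00914), and the gene was tested only because of its HIF2 level.

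Srf (chromosome 17, 46548329 to 46556175), encoding serum response factor, was at 1.15, 1.33, 0.857, 0.78, 1.26, 1.60, 1.84, 0.529 and 0.68 FPKM in WT replicates 0 to 8. It was at 1.43, 0.626, 0.487, 0.989, 1.28, 1.57, 0.927, 1.09 and 0.742 FPKM in HIF2 replicates 0 to 8. The groups overlapped throughout. The 6 libraries high for the contractile genes, HIF2 replicates 0 to 5, spanned 0.487 to 1.57 FPKM, and WT replicate 3 was below the WT median. The difference was -0.06 (SE 0.15, 95% interval -0.37 to 0.25, limma adjusted p = 0.818), so changes within that interval remained compatible with the data.

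Because serum response factor binds CArG boxes, the RefSeq promoter windows of the members (GRCm38.p6, the mm10 assembly, 250 bases before to 50 bases after the start) were searched for the CArG box, whose letters read the same pattern on both strands. Of the 30 members, 26 had a window, and Actg2, Myh11, Myocd and Tagln had none. An exact box lay in windows of 4 of the 26 members, 15.4%, and in those of 1.81% of the 27025 genes in the table. With 1 mismatch allowed, 13 of the 26 members, 50% of them, and 23.8% of all genes had a match. A match is a description of these letters and not a bound site. The 250 bases before the start of the 4 members with an exact box are given 5′ to 3′ on the gene's strand with the box in capitals, since they include both transcription and adhesion members and the only member that was lower.
Srf, chr17:46556163-46556412, minus strand: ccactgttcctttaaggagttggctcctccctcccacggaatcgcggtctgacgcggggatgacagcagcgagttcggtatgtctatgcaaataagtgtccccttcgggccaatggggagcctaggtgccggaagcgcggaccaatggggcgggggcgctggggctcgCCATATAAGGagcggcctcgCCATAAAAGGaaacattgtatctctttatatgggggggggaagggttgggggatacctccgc
Vcl, chr14:20929148-20929397, plus strand: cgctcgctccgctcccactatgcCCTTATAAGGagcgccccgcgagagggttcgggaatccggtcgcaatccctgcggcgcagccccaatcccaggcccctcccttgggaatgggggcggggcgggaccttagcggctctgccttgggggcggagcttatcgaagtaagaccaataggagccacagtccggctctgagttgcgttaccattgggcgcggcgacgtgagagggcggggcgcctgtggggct
Cnn2, chr10:79988350-79988599, plus strand: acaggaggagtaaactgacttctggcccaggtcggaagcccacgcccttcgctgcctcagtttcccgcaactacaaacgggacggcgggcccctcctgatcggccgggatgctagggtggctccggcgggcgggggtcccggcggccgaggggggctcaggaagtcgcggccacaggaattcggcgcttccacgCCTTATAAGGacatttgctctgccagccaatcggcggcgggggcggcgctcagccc
Ldb3, chr14:34588682-34588931, minus strand: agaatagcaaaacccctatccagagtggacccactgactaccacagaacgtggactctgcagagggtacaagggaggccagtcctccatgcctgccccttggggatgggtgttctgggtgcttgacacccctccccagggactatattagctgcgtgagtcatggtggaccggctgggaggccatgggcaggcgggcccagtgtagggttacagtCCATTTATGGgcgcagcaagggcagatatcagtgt
Srf held 2 boxes, at -82 to -73 and at -62 to -53 from its start, Vcl held 1 at -227 to -218, Cnn2 held 1 at -56 to -47 and Ldb3 held 1 at -35 to -26 in the farther upstream of its windows. These 4 genes had log2 differences of -0.06, 0.42, 0.78 and -0.72, and so included the smallest rise, the fall and 1 of the 3 tested members that did not pass. Bases outside the windows were not searched, and a relation of boxes to the differences was not tested. Acta2, with a difference of 3.45, held 2 matches with 1 mismatch, at -84 to -75 and at -34 to -25.

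Of the signalling members, 4 had medians under 1 FPKM in WT. Cacna1c, the pore of the L-type calcium channel through which calcium enters smooth muscle, had a lowest, median and highest of 0.403, 0.546 and 2.63 FPKM in WT and 0.625, 3.63 and 6.16 FPKM in HIF2, a difference of 1.03 (SE 0.30, limma adjusted p = 0.0179). Prkg1, the kinase that cGMP activates to relax smooth muscle, had medians of 0.183 FPKM in WT and 3.63 FPKM in HIF2 and was higher by 1.35 (SE 0.29, limma adjusted p = 0.00302). Kcnmb1, the beta subunit of the large-conductance potassium channel, ran from 0 to 0.951 FPKM in WT, was at 1.35 FPKM or more in HIF2 replicates 0 to 5 and was at 0 to 0.181 FPKM in HIF2 replicates 6 to 8. Ryr2, a calcium release channel of the sarcoplasmic reticulum, ran from 0 to 0.517 FPKM in WT, was at 1.08 FPKM or more in HIF2 replicates 0 to 5 and was at 0.0145 to 0.13 FPKM in HIF2 replicates 6 to 8. With no threshold on level these differences were 0.93 (SE 0.26, limma adjusted p = 0.0198) for Kcnmb1 and 0.75 (SE 0.21, limma adjusted p = 0.019) for Ryr2.

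Pde5a, the phosphodiesterase that degrades cGMP, was at a lowest, median and highest of 25.5, 27.5 and 31.9 FPKM in WT and 26, 42.2 and 50.3 FPKM in HIF2. It was higher by 0.46 (SE 0.11, limma adjusted p = 0.00636), and 7 HIF2 libraries, the most of any member, were above the highest WT library. Dmpk, a serine/threonine kinase expressed in muscle, was at 1.51, 2.49 and 21.6 FPKM in WT and 1.09, 21.4 and 33.3 FPKM in HIF2. Its difference of 1.47 (SE 0.56, limma adjusted p = 0.0697) did not pass, and 4 HIF2 libraries were above WT replicate 3. Without WT replicate 3 it passed (limma adjusted p = 0.0210), and it also passed when any 1 of HIF2 replicates 6, 7 and 8 was left out. Here too these omissions widen the difference by construction. With any 1 of the other 14 libraries left out Dmpk did not pass (limma adjusted p up to 0.125).

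The libraries that decide these values were examined with others left out. Without WT replicate 3 and HIF2 replicates 6 to 8, a choice made from their place in these data that widens the difference by its construction, 26 of 28 tested members were higher and 1 was lower. Over all genes 12.6% were then higher and 13.9% lower. Actg2 differed there by 6.23, Acta2 by 5.25, Myh11 by 5.02, Vcl by 0.70, Ldb3 by -0.56 and Srf by -0.06. These counts and differences are a description, since the libraries were chosen by their values.

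The members were also compared among libraries of like Ddx3y level, a split added after the data were seen. In the 10 libraries above 1 FPKM, 5 of each group, 27 of 29 tested members were higher and 0 were lower, with 8.21% and 3.97% of all genes. Acta2 differed there by 4.31 (limma adjusted p = 0.00408), and Ldb3 by -0.59 (limma adjusted p = 0.106). In the 8 libraries below 1 FPKM, 4 of each group and with HIF2 replicates 6 to 8 among them, 1 of 26 tested members was higher and 1 was lower, with 3.09% and 4.55% of all genes. These were Pdlim7, with a difference of 1.93 (limma adjusted p = 0.0244), and Ldb3, with -0.87 (limma adjusted p = 0.0487). Acta2 differed there by 2.37 (limma adjusted p = 0.230). The difference between these classes itself passed for 0 of 13976 genes (limma interaction, adjusted p under 0.05, against 1234 genes at an unadjusted p under 0.05). For members the lowest adjusted p was 0.521, with 7 of 28 members under 0.05 unadjusted. Of the 4 HIF2 libraries in the lower class, 3 were replicates 6 to 8, and replicate 3, the other one, had Acta2 at 588 FPKM.

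Other genes of the contractile pathway were less uniform. Of 81 such genes listed, all matched a row and 66 were tested, and 32 were higher and 4 lower. The shares over all tested genes were 11.0% higher and 11.1% lower. Of the 66, 15 had a WT mean under 1 FPKM and were tested only through their HIF2 level, and all 15 are among the 32. Among 13 genes for myosin light chains, the light chain phosphatase and their regulators, 5 were higher and 0 lower. Myl9, the regulatory light chain of smooth muscle myosin, was 28.4 ± 49.96 FPKM in WT and 248 ± 182 FPKM in HIF2 (SD, n = 9 each) and was higher by 3.24 (SE 0.82, limma adjusted p = 0.00784). The phosphatase subunit Ppp1r12a was higher by 0.38 (limma adjusted p = 0.00813), its relative Ppp1r12c by 0.64 (limma adjusted p = 0.0259) and the phosphatase inhibitor Ppp1r14a by 1.45 (limma adjusted p = 0.0187). The essential light chain Myl6, shared with nonmuscle myosin, gave 0.30 (limma adjusted p = 0.0713) and did not pass.

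Genes for calcium handling and relaxation included several that were higher, and most receptor genes were too low to test. Of 18 genes for calcium stores, ion channels and cGMP, 16 were tested and 11 were higher, 8 of these tested only through their HIF2 level. They included both subunits of the nitric oxide receptor, Gucy1a3 and Gucy1b3, each higher by 1.73 (limma adjusted p = 0.00175 and 0.00182), the potassium channel gene Kcnj8 by 2.59 (limma adjusted p = 0.000443) and the phosphodiesterase gene Pde1a by 1.48 (limma adjusted p = 0.00148). Of these, Gucy1b3, Kcnj8 and Pde1a were tested only through their HIF2 level. The calcium pump gene Atp2a2 gave -0.02 (limma adjusted p = 0.942) and Pde3a gave 0.07 (limma adjusted p = 0.731). Of 12 receptor genes, 5 were tested and 3 were higher: Ednrb, an endothelin receptor, by 1.60 (limma adjusted p = 0.00191), Chrm2, a muscarinic receptor, by 1.31 (limma adjusted p = 0.0199) and Tacr2, a tachykinin receptor, by 1.07 (limma adjusted p = 0.016). Chrm2 and Tacr2 were tested only through their HIF2 level. Htr2b gave 0.42 (limma adjusted p = 0.168) and Ptger3 gave 0.06 (limma adjusted p = 0.875).

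Adhesion and scaffold genes included 2 that were high in HIF2 replicates 6 to 8. Of 21 listed, 20 were tested, 10 were higher, 3 of them tested only through their HIF2 level, and 0 were lower. The integrin gene Itga8, tested only through its HIF2 level, was higher by 1.05 (limma adjusted p = 0.00962) and the integrin activator gene Fermt2 by 2.18 (limma adjusted p = 0.00211). The laminin-binding integrin gene Itga7 was higher by 2.02 (limma adjusted p = 0.00051), and the LIM protein gene Fhl1 by 1.69 (limma adjusted p = 0.00129). In contrast to the members, both were high in HIF2 replicates 6 to 8, Itga7 at 49.4 to 71.3 FPKM against at most 10.2 FPKM in WT and Fhl1 at 663 to 846 FPKM against at most 179 FPKM in WT. Pxn gave -0.22 (limma adjusted p = 0.145) and Actn1 gave 0.20 (limma adjusted p = 0.569).

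Regulators of the muscle programme were mixed. Of 17 listed, 12 were tested, 3 were higher, 2 of them tested only through their HIF2 level, and 4 were lower. Foxf1, a mesenchymal factor, was higher by 1.39 (limma adjusted p = 0.00509) and Nkx2-3, a factor of gut mesenchyme, by 1.09 (limma adjusted p = 0.000838). Nkx2-3 was tested only through its HIF2 level. Klf4, which is abundant in colon epithelium and also restrains smooth muscle genes, was 114 ± 15.6 FPKM in WT and 74.2 ± 11.8 FPKM in HIF2 (SD, n = 9 each) and lower by -0.61 (SE 0.10, limma adjusted p = 0.000364). Gata6, which is also expressed in epithelium, gave -0.34 (limma adjusted p = 0.0021). The myocardin-related coactivator genes, named here after their values were seen, gave -0.08 for Mkl1 (limma adjusted p = 0.702) and -0.38 for Mkl2 (limma adjusted p = 0.0252). Mef2d gave -0.23 (limma adjusted p = 0.277) and Smad3 gave -0.06 (limma adjusted p = 0.798).

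Markers of several other cells of the bowel wall were also higher in HIF2, but not every list was ordered like the members. The mean of a list over all its matched genes is given relative to the WT median, on the log2(FPKM + 1) scale, and its summed level in FPKM. The mean of the members was 2.04 in WT replicate 3, at most 0.55 in the other WT libraries, 2.48 to 3.08 in HIF2 replicates 0 to 5 and -0.17 to 0.49 in HIF2 replicates 6 to 8. The fibroblast mean was 1.35 in WT replicate 3, at most 1.01 in the other WT libraries, 2.79 to 2.95 in HIF2 replicates 0 to 5 and 0.45 to 1.24 in HIF2 replicates 6 to 8. Of 12 fibroblast markers, 11 were tested and all 11 were higher, and their summed level was 42.0 to 269 FPKM in WT, 885 to 1023 FPKM in HIF2 replicates 0 to 5 and 133 to 279.9 FPKM in HIF2 replicates 6 to 8.

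The pericyte and vascular smooth muscle mean was 1.05 in WT replicate 3, at most 0.43 in the other WT libraries, 1.47 to 2.37 in HIF2 replicates 0 to 5 and 0.69 to 1.02 in HIF2 replicates 6 to 8. Of 10 such markers, 7 were tested and 7 were higher, 4 of them tested only through their HIF2 level, with sums of 3.16 to 65.7 FPKM, 109 to 256 FPKM and 48.6 to 81.9 FPKM in WT, HIF2 replicates 0 to 5 and HIF2 replicates 6 to 8. Kcnj8 and Abcc9 are counted here and also among the genes for calcium stores, ion channels and cGMP. The markers were not ordered alike. Rgs5, which marks pericytes, was at 46.1 FPKM in WT replicate 3 and at most 11.5 FPKM in the other WT libraries, at 43.6 to 92.2 FPKM in HIF2 replicates 0 to 5 and at 1.20 to 5.99 FPKM in HIF2 replicates 6 to 8. Ndufa4l2, a mitochondrial protein gene of the same list, was at most 0.67 FPKM in WT, at 0 to 23.0 FPKM in HIF2 replicates 0 to 5 and at 35.4 to 62.9 FPKM in HIF2 replicates 6 to 8, where it made up most of the sum. Higd1b was under 1 FPKM in every library.

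Most nerve, vessel and macrophage markers that could be tested were higher as well. Of 14 markers of enteric neurons and glia, 7 were tested and 7 were higher, 5 of them tested only through their HIF2 level, with sums of 2.50 to 11.3 FPKM in WT, 44.5 to 141 FPKM in HIF2 replicates 0 to 5 and 6.23 to 14.5 FPKM in HIF2 replicates 6 to 8, while Chat and Sox10 were under 1 FPKM in every library. The mean of that list was 0.999 to 2.16 in HIF2 replicates 0 to 5 and at most 0.34 in WT. Of 11 endothelial markers, 10 were tested and 10 were higher, 6 of them tested only through their HIF2 level, with sums of 5.93 to 25.3 FPKM, 41.8 to 122 FPKM and 19.7 to 24.8 FPKM. Of 8 macrophage markers, 7 were higher, with sums of 8.23 to 49.1 FPKM, 69.1 to 118 FPKM and 31.7 to 64.9 FPKM. WT replicate 3, high for the members, was not high for macrophage markers, with a mean of 0.12 against a highest of 0.92 in the other WT libraries.

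Epithelial markers went the other way. Their mean was -0.28 to 0.13 in WT, -0.75 to -0.28 in HIF2 replicates 0 to 5 and -0.58 to -0.44 in HIF2 replicates 6 to 8, so HIF2 replicates 6 to 8 were below every WT library. Of 10 epithelial markers, 0 were higher and 6 were lower, and in summed FPKM, which the most abundant genes dominate, HIF2 replicates 6 to 8 were inside the WT range, at 7438 to 9054 FPKM against 6399 to 9579.9 FPKM in WT. Of 15 markers of skeletal or cardiac muscle, 9 were under 1 FPKM in every library, among them the myosin heavy chain genes Myh1, Myh2, Myh4, Myh6 and Myh7 and the actin gene Actc1. The mean of that list was nevertheless ordered like the members, at 0.25 in WT replicate 3, at most 0.09 in the other WT libraries, 0.35 to 0.66 in HIF2 replicates 0 to 5 and 0.02 to 0.14 in HIF2 replicates 6 to 8. Of its 3 tested genes 2 were higher, both tested only through their HIF2 level, among them the muscle creatine kinase gene Ckm by 1.92 (limma adjusted p = 0.0136). For interstitial cells of Cajal, the pacemaker cells of gut muscle, 2 of 5 tested markers were higher and 2 were lower. Gja1 was higher by 1.93 (limma adjusted p = 0.000244) and Etv1, tested only through its HIF2 level, by 1.10 (limma adjusted p = 0.000678). Kit was lower by -0.59 (limma adjusted p = 0.00854) and Ano1 by -0.51 (limma adjusted p = 0.0146). The mean of that list was at most 0.19 in WT, 0.33 to 0.63 in HIF2 replicates 0 to 5 and -0.03 to 0.15 in HIF2 replicates 6 to 8. For mesothelium 3 of 5 were higher, all 3 tested only through their HIF2 level. For blood 3 of 4 were higher, 1 of them tested only through its HIF2 level, and for adipocytes 0 of 4. The part of these cell types in the members' differences was not tested.

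**Figure D4:**
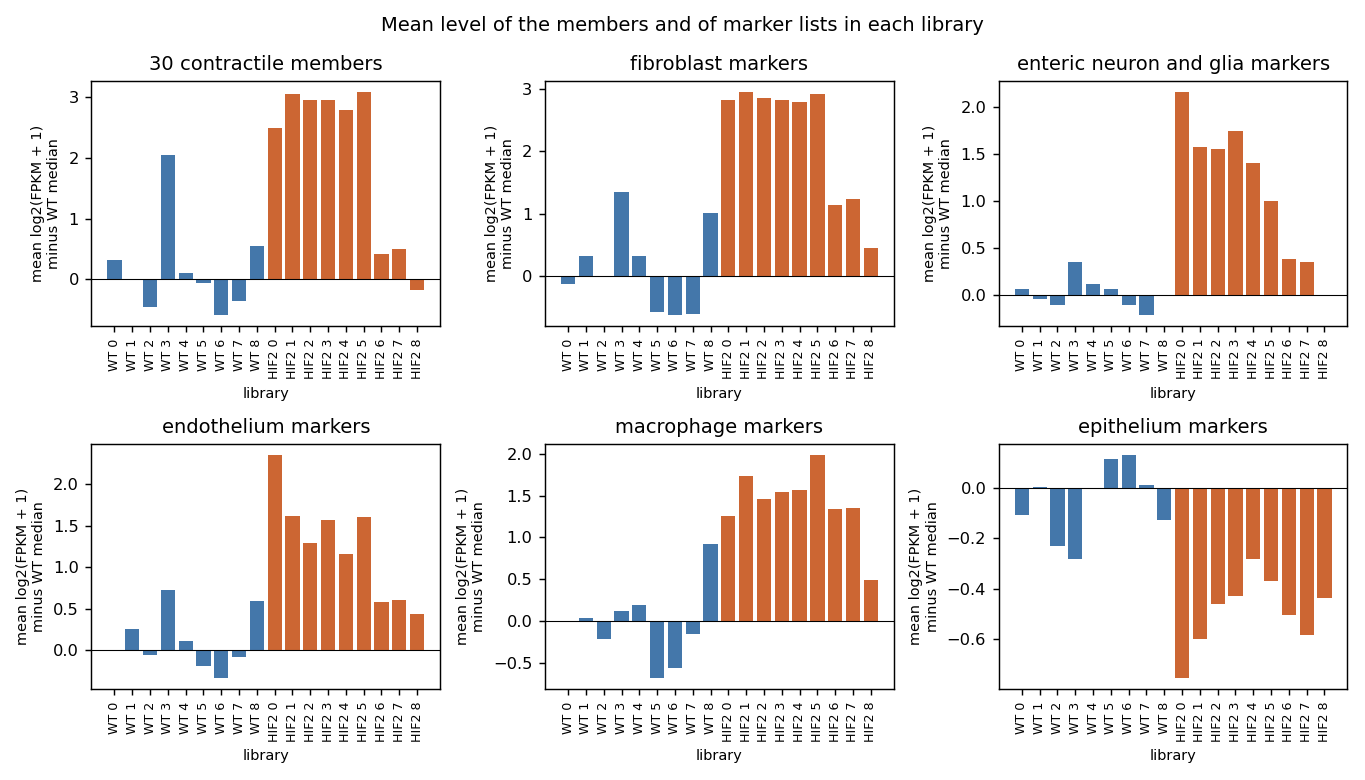
Mean log2(FPKM + 1) of the 30 members and of 5 marker lists (vertical axes, each with its own range), minus the median of the WT libraries, as 1 bar per library from 0, blue for WT and orange for HIF2. The members reach 2.48 to 3.08 in HIF2 replicates 0 to 5 and the fibroblast list 2.79 to 2.95, while the epithelial list lies between -0.75 and -0.28 there.

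The order of the HIF2 libraries for the members differed from that for a known HIF-2α target. Slc11a2, an intestinal iron importer that HIF-2α switches on, was between 12.8 and 19 FPKM in WT. In HIF2 replicates 2 and 4 it was at 16.5 and 18.2 FPKM, inside the WT range, while Acta2 there was at 595 and 493 FPKM. In HIF2 replicates 6 to 8 it was at 2008, 2101 and 1525 FPKM, the highest of all libraries, while Acta2 was at 34.8, 46.0 and 14.8 FPKM. HIF2 replicates 0, 1, 3 and 5 had both genes above the WT range. High contractile RNA and high Slc11a2 RNA were thus found in different, partly overlapping sets of HIF2 libraries. Slc11a2 was chosen for this description after its values were seen.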

How the data were processed

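RNA of 9 WT and 9 HIF2 colon libraries was measured, 1 column per library, and 0 columns were left unmapped. The authors deposited FPKM values, and the tools listed in the submitters' processing notes, with no role stated, are Cufflinks, Cuffdiff 2.1.1, TopHat, TopHat2 2.0.9, Bowtie2 2.1.0.0 and FastQC, and the build is mm10. Read depth is unknown, so no counting interval was given. From the deposited FPKM, log2(FPKM + 1) was computed, and genes with a mean of at least 1 FPKM were tested with limma 3.58.1 (R 4.3.3, trended prior, 2-sided, Benjamini-Hochberg over 13976 genes, threshold 0.05), all 18 libraries, no covariate. The fit was tested on simulated data.

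All 30 members are named, with values in every library for those the results turn on. From each pathway list up to 4 genes with the smallest p and up to 2 of the highest FPKM that did not pass are named, apart from 1 gene that is not reported here, and from marker lists the counts, levels and first markers where a result touched them. Members and lists were chosen with earlier results of these data known. Foxf1 is listed as Foxf1a, and 1 blood marker had no row. Coordinates are from GENCODE M21 (GRCm38), promoter windows from RefSeq. Coding identity compares the longest open reading frames. Alternatives covered pseudocounts of 0.1 and 0.01, a threshold of 5 FPKM or none, scaling, covariates, an exact rank test, each library left out and a replicate block. Plots were made in matplotlib 3.10.9.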

Additional observations from a re-analysis of the deposited data

Results flagged for a closer look

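In groups of 9 libraries, 16 of 60 combinations of member and group had a highest or lowest library far from the others by Dixon's criterion. The criterion was taken on the log2(FPKM + 1) scale, and gaps in FPKM itself were not judged. It compares the gap between that library and its nearest neighbour with the group's range, and by chance marks about 1 in 20. All 16 were WT replicate 3 at the top of the WT group. Its levels were 281 FPKM for Actg2, 375 FPKM for Tpm1, 56.2 FPKM for Tpm2, 16.6 FPKM for Cald1 and 13.5 FPKM for Smtn among thin filament genes, and 54.6 FPKM for Mylk. Among dense body, filament and adhesion genes they were 121 FPKM for Des, 13.3 FPKM for Synm, 12.3 FPKM for Synpo2, 95.2 FPKM for Csrp1, 35.6 FPKM for Vcl and 15.0 FPKM for Pgm5. Among signalling genes they were 0.951 FPKM for Kcnmb1, 2.63 FPKM for Cacna1c, 0.517 FPKM for Ryr2 and 21.6 FPKM for Dmpk. These 16 are not independent, since they come from 1 library. HIF2 replicates 6 to 8, 3 libraries that lie together, could not be flagged by a rule on single libraries.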

How the results depend on the processing

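The count of members that were higher, 24 of 28 tested, lay between 22 and 26 when each library was left out in turn, and members lower stayed at 1. Over all genes, with 1 library left out, higher counts ranged from 1282 to 1661 and lower counts from 1336 to 1657. In the 8 libraries with Ddx3y below 1 FPKM, 1 member was higher, and 420 genes were higher and 618 lower over all. In the 10 libraries with Ddx3y above 1 FPKM, 0 members and 558 genes were lower. With no threshold on level, 2407 genes were higher, and at 5 FPKM, where Ldb3 was not tested, 640 genes were higher and 0 members were lower. Replicate numbers did not pair the libraries: 1 of 9 same-number correlations was over 0.1, and 0 WT and 1 HIF2 libraries correlated best with their own number. A replicate block left 24 members higher and 1 lower, and 1355 genes higher and 1345 lower. An exact rank test called 16 members and 1227 genes higher and 1400 genes lower, and did not call Vcl, Mylk, Tpm1, Tpm2, Lmod1, Cnn2, Des or Synpo2. TPM scaling called 23 members, without Vcl, and 1292 genes higher. Smtn and Dmpk passed with a Ddx3y covariate (limma adjusted p = 0.0350 and 0.0444) and with array weights (limma adjusted p = 0.0015 and 0.0021). The cause of these changes was not tested. No member changed sign under any of these settings. Levels under 1 FPKM, as for Kcnmb1, Ryr2 and Myocd in WT, rest on an unknown number of reads.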
